A study of Mus musculus with 18 samples.

Results

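Receptors of B cells, many of which restrain activation, were followed here in mice that lack endophilin A2. This membrane-bending endocytic protein is encoded by Sh3gl1. The 10 genes were chosen as a list of inhibitory and Fc receptors and matched by symbol in the GENCODE M21 annotation of GRCm38. All 10 were found among the 51912 identifiers of the table, and all 10 passed the filter on low counts in every comparison. RNA was sequenced from wild-type (WT) and Sh3gl1 knockout (Sh3gl1-/-) mice on the C57BL/6 strain, with 3 biological replicates from littermates in each of 6 groups. Transitional and follicular B cells were sorted ex vivo from both genotypes, and follicular B cells of both genotypes were also treated for 14 h with CD40L, the T cell ligand that activates B cells through CD40. That time is the one in the labels, whereas the text of the study gives the culture as overnight and elsewhere as a longer time. Total counts per library ran from 12404665 to 18366011.

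The knockout is of the whole mouse and not limited to B cells. The age of the mice was not given in the sources used here. No group was cultured without CD40L, and culture and CD40L cannot be told apart. The methods define these populations in spleen by B220, CD93, CD23, CD21/35 and IgM on the cell surface, and the markers used to sort for RNA are not given separately in the sources used here. Levels of the genes for these markers between transitional and follicular cells are therefore no finding.

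Inhibitory receptors of B cells carry tyrosine motifs in their cytoplasmic tails, called ITIMs, that the kinase Lyn phosphorylates and that then recruit the phosphatases SHP-1 (Ptpn6) and SHIP (Inpp5d). Their ligands differ. Fcgr2b binds the Fc part of IgG in immune complexes, Cd22 and Siglecg bind sialic acid, and Cd72 is a C-type lectin that binds the semaphorin Sema4d. Pirb and Lilrb4a belong to the family of leukocyte immunoglobulin-like receptors, and Lair1 binds collagen. Fcrl1 and Fcrl5 are Fc receptor-like proteins. Fcrl1 carries activating motifs and counts as a co-stimulatory member of its family, whereas Fcrl5 has both activating and inhibitory motifs. Cd5 is a negative regulator of antigen receptor signaling in T cells and in B-1 cells.

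The genes lie on 6 chromosomes of GRCm38, with the strand in parentheses. Chromosome 7 holds Pirb at chr7:3711409-3720391 (minus), Lair1 at chr7:4003402-4063204 (minus), Cd22 at chr7:30865402-30880342 (minus) and Siglecg at chr7:43408204-43418358 (plus). Chromosome 3 holds Fcrl1 at chr3:87376387-87402934 (plus) and Fcrl5 at chr3:87435773-87500678 (plus). The others are Fcgr2b at chr1:170958617-170976547 (minus), Cd72 at chr4:43446462-43454628 (minus), Lilrb4a at chr10:51490956-51496611 (plus) and Cd5 at chr19:10717116-10739002 (minus). All 10 are annotated as protein coding. Tesk1 overlaps exons of Cd72 on the opposite strand, with 3 to 30 counts per library, and antisense transcripts that overlap Fcgr2b, Cd22 and Lilrb4a had at most 4 counts.

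Promoters are shown for a pair of receptor genes that fell on CD40L culture (Pirb and Siglecg) and a pair that rose (Fcrl1 and Fcrl5). These genes kept their direction in both genotypes, as did other receptors described below. Each promoter is the 250 bases upstream of the start site in RefSeq on GRCm38.p6, read 5′ to 3′ on the strand of the gene. Capitals mark GAGGAA, the core of the PU.1 site of B cell and myeloid genes, on either strand, and in Fcrl1 also a match to the NF-kB consensus on either strand, which does not overlap the PU.1 cores. Pirb is at chr7:3720383-3720632 on the minus strand, Siglecg (the first of its RefSeq starts) at chr7:43407989-43408238 on the plus strand, Fcrl1 at chr3:87376137-87376386 on the plus strand and Fcrl5 at chr3:87435532-87435781 on the plus strand.
Pirb: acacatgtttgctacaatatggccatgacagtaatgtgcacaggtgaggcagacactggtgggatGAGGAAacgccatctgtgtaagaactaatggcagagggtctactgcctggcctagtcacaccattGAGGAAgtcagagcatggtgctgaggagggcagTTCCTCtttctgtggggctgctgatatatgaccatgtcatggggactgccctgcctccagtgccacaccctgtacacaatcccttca
Siglecg: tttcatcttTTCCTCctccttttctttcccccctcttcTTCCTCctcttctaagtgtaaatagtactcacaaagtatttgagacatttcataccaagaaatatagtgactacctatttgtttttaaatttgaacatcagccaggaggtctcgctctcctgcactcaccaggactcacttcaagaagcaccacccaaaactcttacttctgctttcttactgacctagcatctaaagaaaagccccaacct
Fcrl1: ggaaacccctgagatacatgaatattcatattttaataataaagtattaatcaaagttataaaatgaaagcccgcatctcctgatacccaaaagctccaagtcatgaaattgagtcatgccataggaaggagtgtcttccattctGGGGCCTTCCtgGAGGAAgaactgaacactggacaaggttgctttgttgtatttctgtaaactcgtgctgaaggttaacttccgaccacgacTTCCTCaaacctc
Fcrl5: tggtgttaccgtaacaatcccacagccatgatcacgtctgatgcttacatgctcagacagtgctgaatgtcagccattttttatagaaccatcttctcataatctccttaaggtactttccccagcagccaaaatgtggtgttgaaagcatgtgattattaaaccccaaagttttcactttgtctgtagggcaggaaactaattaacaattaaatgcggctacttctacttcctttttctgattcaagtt

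RefSeq promoters matched 9 of the 10 genes. GAGGAA was present in 6 of the 9 (Cd72, Siglecg, Pirb, Lair1, Fcrl1 and Cd5), beside 25.9% of the 27025 genes with a promoter. The NF-kB consensus was present in 1 of the 9 (Fcrl1), beside 5.67% of all genes, and the octamer ATGCAAAT in 0 of the 9, beside 1.81%. These matches describe the letters of the windows and were not tested as sites.

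Sh3gl1 itself matched the genotype labels. Levels of single genes across libraries are given in CPM, which are counts scaled to library size. The level of Sh3gl1 was 35.0 ± 5.30 CPM (SD, n = 3) in WT and 0.485 ± 0.275 CPM in Sh3gl1-/- transitional cells, 34.3 ± 0.761 and 0.138 ± 0.0608 CPM in follicular cells, and 56.1 ± 2.24 and 1.29 ± 0.545 CPM after CD40L. The B cell genes Cd79a and Ms4a1 were abundant in all groups, at 4146 ± 76.3 and 2581 ± 135 CPM in WT follicular cells. Cd93, which marks transitional cells and is among the markers of the gate, was at 64.8 ± 7.38 CPM in WT transitional and 12.9 ± 1.35 CPM in WT follicular cells. Among the Sh3gl1-/- transitional libraries, replicates 1 and 3 stood apart from replicate 2 in RNA of 6 erythroid markers (summed CPM 8851, 4447 and 9522). The same replicates were highest in Sh3gl1-/- follicular cells (6592, 3003 and 9357 CPM, beside 3864, 3569 and 1433 CPM in WT). After CD40L the sum was 6.55, 362 and 35.8 CPM in WT and 59.8, 115 and 31.7 CPM in Sh3gl1-/- libraries, with 6 of 6 called lower than ex vivo in both genotypes. The fold changes of the receptor genes and the counts of receptors called were also computed without each library in turn.

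The receptor genes spanned several orders of magnitude in level, expressed in TPM, which corrects for transcript length and library size. Cd72 was the most abundant of the 10 in every group. In WT follicular cells its mean level was 958 ± 55.3 TPM (SD, n = 3), followed by Fcrl1 at 408 ± 26.1 TPM, Siglecg at 359 ± 22.7 TPM, Cd22 at 297 ± 43.0 TPM and Fcgr2b at 133 ± 19.3 TPM. The ranges of Fcrl1 and Siglecg overlapped, and the other neighbors among these 5 did not. The remaining 5 genes were lower, with Pirb at 28.8 ± 4.40 TPM, Fcrl5 at 12.2 ± 2.52 TPM, Lilrb4a at 5.34 ± 1.5 TPM, Cd5 at 3.64 ± 0.730 TPM and Lair1 at 2.45 ± 0.696 TPM. The ranges of Lilrb4a and Cd5, and of Cd5 and Lair1, overlapped.

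The order shifted between states. In WT transitional cells Siglecg stood second at 589 ± 37.3 TPM, above Fcrl1 at 432 ± 6.91 TPM, with no overlap between their libraries. After CD40L culture of WT cells Lilrb4a ranked sixth at 94.0 ± 15.6 TPM, below Fcgr2b at 134 ± 9.83 TPM and Siglecg at 134 ± 10.2 TPM, whose ranges overlapped each other. Pirb was at 11.1 ± 2.84 TPM and Lair1 at 0.857 ± 0.150 TPM in the same cells. In Sh3gl1-/- follicular cells Cd22 at 298 ± 62.9 TPM and Siglecg at 297 ± 32.2 TPM overlapped, as did Cd22 and Fcrl1 at 382 ± 22.4 TPM, and Cd5 at 6.63 ± 2.28 TPM ranked above Lilrb4a at 6.32 ± 1.87 TPM with overlap. The order of the 10 genes by mean was identical in the deposited FPKM values in all 6 groups. Summed over the 10 genes, the mean level was 3229.5 ± 38.1 TPM in WT and 2563 ± 343 TPM in Sh3gl1-/- transitional cells, and 2208 ± 112 and 2249.9 ± 167 TPM in follicular cells. After CD40L it was 2024 ± 255 TPM in WT and 2400.2 ± 151 TPM in Sh3gl1-/- cells. Cd72 alone made up much of this sum, from a mean of 43.4% in WT follicular cells to 55.7% in Sh3gl1-/- cells after CD40L.

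**Figure D1:**
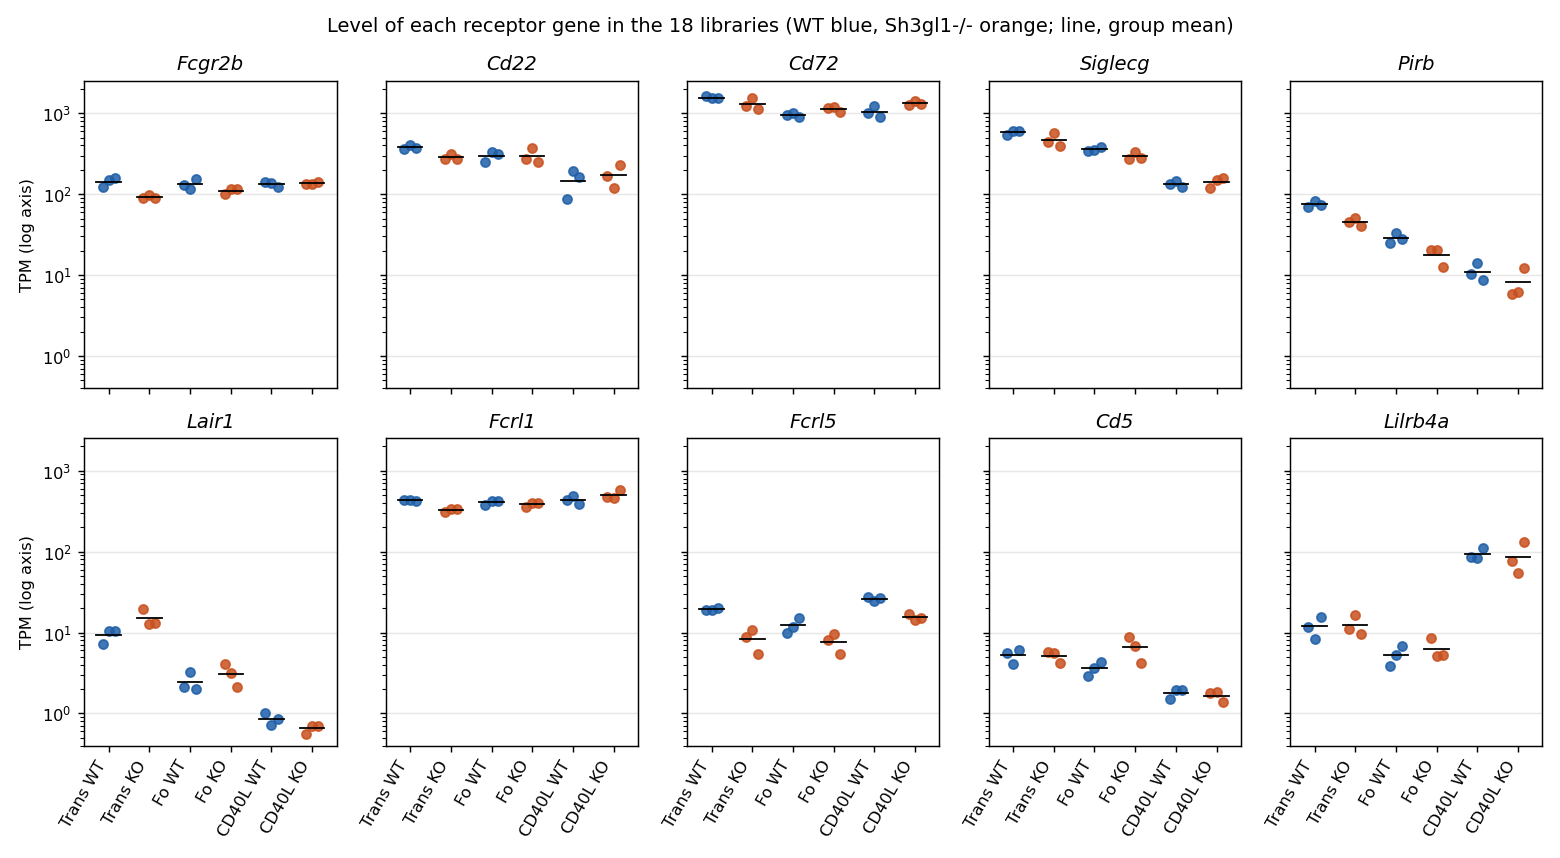
Level of each receptor gene in each of the 18 libraries, in TPM on a log axis, by group (KO is Sh3gl1-/-), with a line at the group mean. Cd72 lies highest in every group, Lilrb4a lies higher after CD40L culture (94.0 ± 15.6 TPM in WT cells) than in either ex vivo state, and Pirb and Lair1 lie lower in follicular than in transitional cells and lower again after culture.

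The response to CD40L was compared between cultured and ex vivo follicular cells, within each genotype. In WT cells 4 receptor genes rose (Lilrb4a, Fcrl5, Fcrl1 and Cd72) and 5 fell (Siglecg, Pirb, Cd22, Lair1 and Cd5), whereas Fcgr2b did not pass the test. In Sh3gl1-/- cells the same directions were found, and all 10 passed, 5 higher and 5 lower. These counts stand against a background of 49.3% of 14460 genes called in WT cells (23.6% higher and 25.7% lower) and 42.4% in Sh3gl1-/- cells (20.6% higher and 21.8% lower). The median log2 fold change of the 10 genes was -0.30 beside -0.08 over all genes tested in WT cells and -0.26 beside -0.03 over all genes tested in Sh3gl1-/- cells. The libraries of the groups did not overlap for 9 of the 10 in WT cells, beside 56.5% of all genes, and for 10 of the 10 in Sh3gl1-/- cells, beside 53.2%. The call is an adjusted p under 0.05 in the quasi-likelihood test of edgeR. A lower level in sorted bulk cells can come from fewer cells of a type or from less RNA per cell, which cannot be told apart here.

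Lilrb4a, whose product is an ITIM receptor best known from myeloid and mast cells, rose most. In follicular cells Lilrb4a measured 5.38, 7.22 and 10.6 CPM in the WT libraries and 13.1, 8.73 and 9.51 CPM in the Sh3gl1-/- libraries. After CD40L culture Lilrb4a measured 157, 151 and 219 CPM in the WT libraries and 135, 83.3 and 222 CPM in the Sh3gl1-/- libraries. No cultured library overlapped the ex vivo ones. The increase was 22.4-fold in WT, a log2 fold change of 4.49 (SE 0.35 and adjusted p = 2.70e-07), and 13.9-fold in Sh3gl1-/- cells, at 3.80 (SE 0.34 and adjusted p = 1.13e-06). Lilrb4a lies at chr10:51490956-51496611 on the plus strand and shares exons on the same strand with the annotated gene Gm49339, which also spans the neighboring paralog Lilr4b, so that reads between them are assigned by estimate. Gm49339 rose from 0.966 ± 0.864 to 62.2 ± 11.9 CPM and Lilr4b from 2.56 ± 1.36 to 15.4 ± 1.08 CPM in WT cells. With the counts of the 3 genes summed, a choice made after the data were seen, the log2 fold change of the locus was 4.47 in WT and 3.47 in Sh3gl1-/- cells.

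The Fc receptor-like genes, whose promoters are printed above, rose as well. In follicular cells Fcrl5 measured 19.0, 22.0 and 29.3 CPM in the WT libraries and 15.3, 18.1 and 10.5 CPM in the Sh3gl1-/- libraries. After CD40L culture Fcrl5 measured 57.9, 49.4 and 56.8 CPM in the WT libraries and 33.7, 28.5 and 28.6 CPM in the Sh3gl1-/- libraries. Each cultured group lay above its ex vivo group, with a log2 fold change of 1.20 (SE 0.19 and adjusted p = 0.000158) in WT and 1.03 (SE 0.20 and adjusted p = 0.000834) in Sh3gl1-/- cells by edgeR. In follicular cells Fcrl1 measured 551, 606 and 618 CPM in the WT libraries and 547, 579 and 629.5 CPM in the Sh3gl1-/- libraries. After CD40L culture Fcrl1 measured 760.5, 803 and 683 CPM in the WT libraries and 789.8, 748 and 906 CPM in the Sh3gl1-/- libraries. The groups did not overlap, and the change was small, at 0.31 (SE 0.10 and adjusted p = 0.0181) in WT and 0.46 (SE 0.10 and adjusted p = 0.00205) in Sh3gl1-/- cells by edgeR. The Fcrl1 call in WT cells was lost without follicular WT replicate 1 or CD40L WT replicate 2 (adjusted p 0.0702 and 0.0706).

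Cd72 and Fcgr2b, the receptors for Sema4d and IgG, changed little. In follicular cells Cd72 measured 849, 899 and 836 CPM in the WT libraries and 1062, 1056 and 999 CPM in the Sh3gl1-/- libraries. After CD40L culture Cd72 measured 1083, 1222 and 953 CPM in the WT libraries and 1321, 1416 and 1259.5 CPM in the Sh3gl1-/- libraries. The groups did not overlap within either genotype, and edgeR gave 0.31 (SE 0.09 and adjusted p = 0.0132) in WT and 0.34 (SE 0.09 and adjusted p = 0.00826) in Sh3gl1-/- cells. Without follicular WT replicate 3 or CD40L WT replicate 2 the Cd72 call in WT cells was lost (adjusted p 0.0556 and 0.0722). In follicular cells Fcgr2b measured 149, 142 and 179.8 CPM in the WT libraries and 119, 132 and 143 CPM in the Sh3gl1-/- libraries. After CD40L culture Fcgr2b measured 205, 190.4 and 178 CPM in the WT libraries and 183, 171 and 175 CPM in the Sh3gl1-/- libraries. The WT groups overlapped, with 0.26 (SE 0.11 and adjusted p = 0.0712) by edgeR, whereas the Sh3gl1-/- groups did not, with 0.41 (SE 0.11 and adjusted p = 0.00974). The Sh3gl1-/- call was lost without follicular Sh3gl1-/- replicate 1 (adjusted p 0.0539), and the WT value passed in DESeq2 at an adjusted p of 0.0251 and without follicular WT replicate 3 at 0.0244.

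The sialic acid receptors fell in both genotypes. In follicular cells Siglecg measured 925, 956 and 1061 CPM in the WT libraries and 791, 920.1 and 844 CPM in the Sh3gl1-/- libraries. After CD40L culture Siglecg measured 429, 418 and 388 CPM in the WT libraries and 350.1, 440.4 and 439.7 CPM in the Sh3gl1-/- libraries. All cultured libraries lay below all ex vivo ones, with log2 fold changes of -1.28 (SE 0.11 and adjusted p = 4.76e-07) in WT and -1.07 (SE 0.11 and adjusted p = 3.03e-06) in Sh3gl1-/- cells by edgeR. In follicular cells Cd22 measured 671, 834 and 817 CPM in the WT libraries and 740.4, 962 and 726 CPM in the Sh3gl1-/- libraries. After CD40L culture Cd22 measured 275, 483 and 436 CPM in the WT libraries and 438, 344 and 571 CPM in the Sh3gl1-/- libraries. The cultured libraries again lay below the ex vivo ones, with -0.99 (SE 0.21 and adjusted p = 0.00131) in WT and -0.86 (SE 0.21 and adjusted p = 0.00418) in Sh3gl1-/- cells by edgeR. The cultured Cd22 values spread more widely within each genotype than those of Siglecg.

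Pirb, Lair1 and Cd5 also fell. In follicular cells Pirb measured 60.8, 80.4 and 69.7 CPM in the WT libraries and 51.7, 51.6 and 34.8 CPM in the Sh3gl1-/- libraries. After CD40L culture Pirb measured 28.8, 36.0 and 25 CPM in the WT libraries and 15.7, 17.2 and 31.5 CPM in the Sh3gl1-/- libraries. The groups did not overlap, and edgeR gave -1.26 (SE 0.25 and adjusted p = 0.000736) in WT and -1.11 (SE 0.25 and adjusted p = 0.00252) in Sh3gl1-/- cells. The activating paralog Pira2 fell by 0.90 and 0.76 on the log2 scale. In follicular cells Lair1 measured 3.43, 4.44 and 5.11 CPM in the WT libraries and 6.46, 5.10 and 3.65 CPM in the Sh3gl1-/- libraries. After CD40L culture Lair1 measured 1.45, 1.34 and 1.35 CPM in the WT libraries and 0.565, 1.12 and 0.939 CPM in the Sh3gl1-/- libraries, which rests on raw counts of 21, 20 and 22 in WT and 8, 14 and 15 in Sh3gl1-/- libraries. Its log2 fold change was -1.67 (SE 0.34 and adjusted p = 0.00105) in WT and -2.54 (SE 0.36 and adjusted p = 7.40e-05) in Sh3gl1-/- cells by edgeR, with no overlap. In follicular cells Cd5 measured 4.79, 5.93 and 7.29 CPM in the WT libraries and 15.2, 11.4 and 7.65 CPM in the Sh3gl1-/- libraries. After CD40L culture Cd5 measured 2.90, 3.54 and 3.73 CPM in the WT libraries and 3.25, 3.27 and 2.38 CPM in the Sh3gl1-/- libraries. The Cd5 groups did not overlap, and edgeR gave -0.85 (SE 0.28 and adjusted p = 0.0230) in WT and -1.96 (SE 0.29 and adjusted p = 0.000101) in Sh3gl1-/- cells. The WT call for Cd5 was lost without follicular WT replicate 2 or 3 or CD40L WT replicate 1 (adjusted p 0.0586 to 0.0911).

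Whether the genotypes differed in this response was tested by the interaction term. None of the 10 receptor genes passed (0% of all genes), with 1 of the 10 at an unadjusted p under 0.05, as were 1278 of 14460 genes, and 0 of the 10 called by DESeq2. The 1 gene was Cd5, with a difference in log2 fold change of -1.11 (SE 0.40, unadjusted p = 0.0147, adjusted p = 0.484, edgeR). For Lilrb4a the difference was -0.69 (SE 0.45 and adjusted p = 0.693), for Lair1 -0.87 (SE 0.49 and adjusted p = 0.623) and for Siglecg 0.21 (SE 0.15 and adjusted p = 0.719). A missed threshold does not show that the responses were alike.

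Maturation was read from ex vivo follicular against transitional cells. In WT mice 5 receptor genes were lower in follicular cells (Lair1, Pirb, Lilrb4a, Cd72 and Siglecg) and 0 were higher, against a background of 14.2% of 14580 genes called lower and 11.7% called higher (25.9% either way). In Sh3gl1-/- mice 4 were lower (Lair1, Pirb, Lilrb4a and Siglecg) and 0 higher, against 6.71% lower and 3.7% higher (10.4% either way). The libraries did not overlap for 7 of the 10 in each genotype, beside 40.8% of all genes in WT and 30.5% in Sh3gl1-/- cells. All 10 WT estimates were below 0, with a median of -0.59 beside 0.03 over all genes tested, and the Sh3gl1-/- median was -0.13 beside -0.00473 over all genes tested. Among the 10, 7 were below an unadjusted p of 0.05 in WT cells, all lower, as were 5532 of the 14580 genes in either direction. In Sh3gl1-/- cells it was 6, of which 1 (Fcrl1) was higher, beside 3482 of the 14580 genes.

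Among the 10, the largest decreases in WT cells were those of the leukocyte immunoglobulin-like and collagen receptors. In transitional cells Lair1 measured 13.6, 17.4 and 15.3 CPM in the WT libraries and 33.5, 16.1 and 24.8 CPM in the Sh3gl1-/- libraries, above every follicular library, and the log2 difference was -1.83 (SE 0.27 and adjusted p = 0.000356) in WT and -2.30 (SE 0.27 and adjusted p = 9.35e-05) in Sh3gl1-/- cells by edgeR. In transitional cells Pirb measured 160.1, 189 and 168 CPM in the WT libraries and 109, 116 and 99.2 CPM in the Sh3gl1-/- libraries, again with no overlap with follicular cells, at -1.28 (SE 0.14 and adjusted p = 3.92e-05) in WT and -1.25 (SE 0.15 and adjusted p = 8.87e-05) in Sh3gl1-/- cells. In transitional cells Lilrb4a measured 19.7, 13.0 and 22.8 CPM in the WT libraries and 18.4, 23.0 and 16.2 CPM in the Sh3gl1-/- libraries, and was lower in follicular cells by 1.26 in WT and 0.89 in Sh3gl1-/- cells on the log2 scale (adjusted p = 0.00351 and 0.0405, edgeR). The Sh3gl1-/- call for Lilrb4a was lost without transitional Sh3gl1-/- replicate 1 or 2 or follicular Sh3gl1-/- replicate 2 or 3 (adjusted p 0.0801 to 0.165) and in a fit of all 18 libraries (0.104). Pira2 was lower in follicular cells too, at -0.75 (SE 0.19 and adjusted p = 0.0121) in WT cells, as was the activating IgG receptor Fcgr3 of myeloid cells, at -2.61 (SE 0.28 and adjusted p = 2.57e-05).

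Siglecg and Cd72 were lower in follicular cells by smaller factors. In transitional cells Siglecg measured 1430.4, 1598 and 1607 CPM in the WT libraries and 1237, 1578 and 1150.2 CPM in the Sh3gl1-/- libraries, above all follicular libraries of the same genotype, and the log2 difference was -0.65 (SE 0.10 and adjusted p = 0.000588) in WT and -0.65 (SE 0.10 and adjusted p = 0.00117) in Sh3gl1-/- cells by edgeR. In transitional cells Cd72 measured 1415, 1355 and 1355 CPM in the WT libraries and 1141, 1382 and 1087 CPM in the Sh3gl1-/- libraries, and the difference was -0.67 (SE 0.08 and adjusted p = 5.61e-05) in WT but -0.22 (SE 0.08 and adjusted p = 0.0913) in Sh3gl1-/- cells. The difference between the genotypes for Cd72 was 0.44 (SE 0.11 and adjusted p = 0.127), which did not pass in edgeR but did in DESeq2 (adjusted p = 0.00999), and in edgeR without transitional Sh3gl1-/- replicate 2 (0.0485). Without transitional Sh3gl1-/- replicate 3 the Sh3gl1-/- decrease of Cd72 passed (0.0362). None of the 10 genes passed that interaction in edgeR (0.0686% of all genes), with 4 at an unadjusted p under 0.05, as were 1992 of 14580 genes, and 1 called by DESeq2.

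The other receptors showed smaller differences between the ex vivo states. In transitional cells Cd22 measured 899.7, 998 and 897 CPM in the WT libraries and 699.5, 791 and 708 CPM in the Sh3gl1-/- libraries, and follicular against transitional cells gave -0.26 (SE 0.11 and adjusted p = 0.0973) in WT and 0.13 (SE 0.11 and adjusted p = 0.527) in Sh3gl1-/- mice by edgeR. In transitional cells Fcrl5 measured 32.9, 34.0 and 35.4 CPM in the WT libraries and 16.0, 18.4 and 10.5 CPM in the Sh3gl1-/- libraries, and the log2 difference was -0.54 (SE 0.22 and adjusted p = 0.0845) in WT and -0.04 (SE 0.22 and adjusted p = 0.939) in Sh3gl1-/- mice. With same-numbered libraries paired within a genotype as a replicate block, Cd22 and Fcrl5 passed as lower in WT follicular cells (adjusted p = 0.0176 and 0.00915), which made 7 genes called in WT cells. Unpaired, Fcrl5 passed in WT cells without follicular WT replicate 3 (adjusted p = 0.0426). In transitional cells Fcrl1 measured 623, 638 and 612 CPM in the WT libraries and 459, 491 and 538 CPM in the Sh3gl1-/- libraries. The paired fit called it higher in Sh3gl1-/- follicular cells (log2 difference 0.23, adjusted p = 0.0297), beside 0.23 (SE 0.08 and adjusted p = 0.0826) unpaired and an adjusted p of 0.0458 without transitional Sh3gl1-/- replicate 3. In transitional cells Fcgr2b measured 139, 185 and 192 CPM in the WT libraries and 109, 116 and 113 CPM in the Sh3gl1-/- libraries, with differences of -0.13 (SE 0.12 and adjusted p = 0.482) in WT and 0.21 (SE 0.12 and adjusted p = 0.335) in Sh3gl1-/- mice by edgeR. In transitional cells Cd5 measured 8.94, 6.70 and 9.78 CPM in the WT libraries and 9.66, 9.31 and 7.32 CPM in the Sh3gl1-/- libraries, with -0.49 (SE 0.26 and adjusted p = 0.181) in WT and 0.37 (SE 0.25 and adjusted p = 0.423) in Sh3gl1-/- mice.

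**Figure D2:**
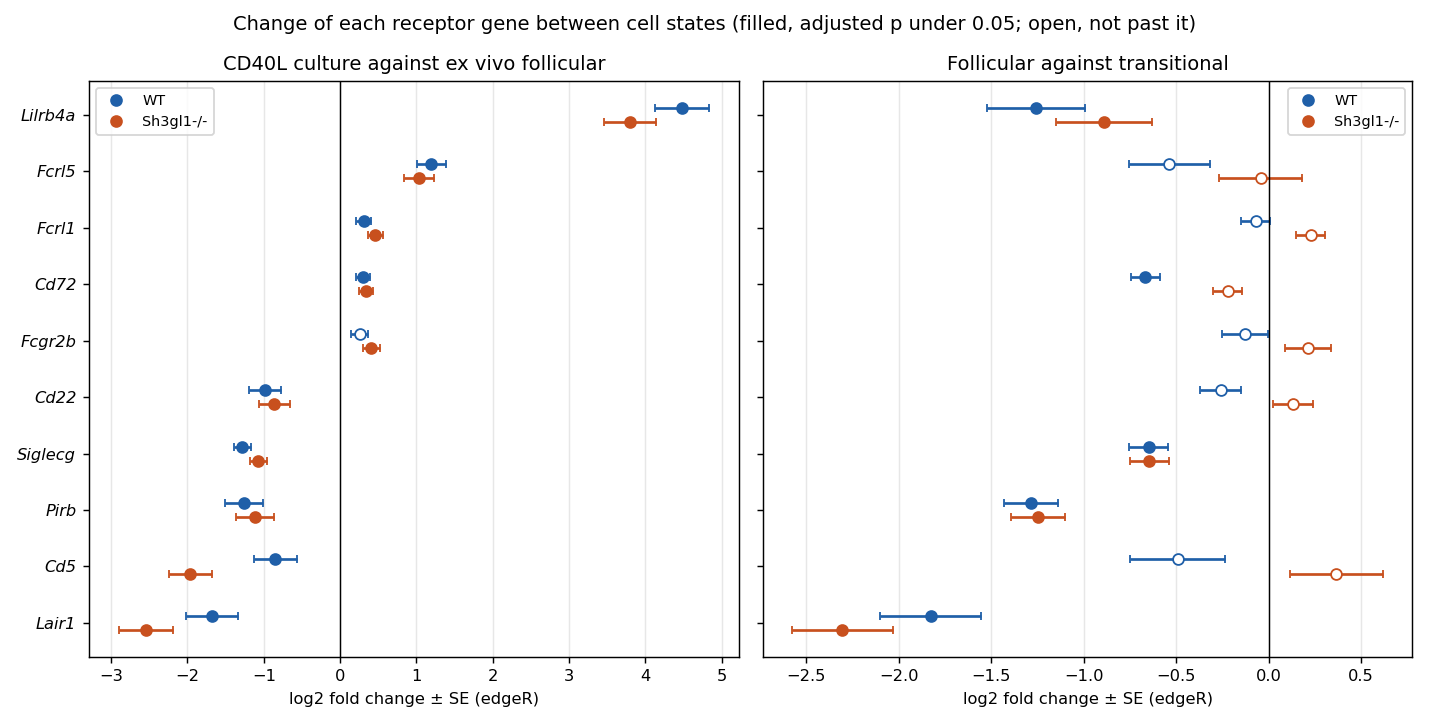
Log2 fold change of each receptor gene (± SE, edgeR) for CD40L-cultured against ex vivo follicular cells (left) and for follicular against transitional cells (right), with WT in blue, Sh3gl1-/- in orange and filled points for an adjusted p under 0.05. On the left Lilrb4a and Fcrl5 lie to the right of 0 and Cd22, Siglecg, Pirb, Cd5 and Lair1 to the left in both genotypes, and on the right Lair1, Pirb, Lilrb4a and Siglecg lie to the left in both.

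The effect of endophilin A2 loss was tested within each cell state. In transitional cells 3 receptor genes were lower in Sh3gl1-/- than in WT mice (Fcrl5, Pirb and Fcgr2b) and 0 were higher, beside 2.48% of 13774 genes called lower and 1.26% called higher (3.73% either way). In follicular cells ex vivo 0 of the 10 passed (0.845% of 13610 genes), with 6 at an unadjusted p under 0.05, as were 1481 of the 13610, and 2 called by DESeq2. After CD40L 0 of the 10 passed (0.0227% of 13188 genes), with 2 at an unadjusted p under 0.05, as were 932 of the 13188, and 1 called by DESeq2. The median log2 fold change of the 10 was -0.28 beside 0.02 over all genes tested in transitional cells, 0.02 beside -0.00293 over all genes tested in follicular cells and -0.13 beside 0.01 over all genes tested after CD40L. The libraries of the genotypes did not overlap for 5 of the 10 in transitional cells (28% of all genes), 5 in follicular cells (16%) and 3 after CD40L (13.8%). The 3 comparisons use different libraries, and exact permutation tests of 3 against 3 libraries cannot go below p = 0.1.

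Fcrl5 had values below those of WT cells in all 3 states, and passed the test in transitional cells. The values given above put every Sh3gl1-/- library below every WT library in each state. By edgeR the log2 fold change was -1.18 (SE 0.19 and adjusted p = 0.0178) in transitional cells, -0.67 (SE 0.22 and adjusted p = 0.238) in follicular cells and -0.82 (SE 0.14 and adjusted p = 0.158) after CD40L. DESeq2 called it lower after CD40L (adjusted p = 0.000455). Its counts were whole numbers in all libraries, so that no reads were divided with another gene. The transitional call was lost without transitional WT replicate 2 or transitional Sh3gl1-/- replicate 1 (adjusted p 0.0670 and 0.0687).

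Pirb and Fcgr2b were the other receptors called lower in Sh3gl1-/- transitional cells. For Pirb, the Sh3gl1-/- libraries lay below the WT libraries in transitional and in follicular cells and overlapped them after CD40L. EdgeR gave -0.67 (SE 0.10 and adjusted p = 0.0133) in transitional cells, -0.61 (SE 0.16 and adjusted p = 0.133) in follicular cells and -0.45 (SE 0.27 and adjusted p = 0.764) after CD40L, and DESeq2 also called the follicular difference (adjusted p = 0.00744). The related gene Gm14548 was lower in Sh3gl1-/- transitional cells as well, at -1.44 (SE 0.19 and adjusted p = 0.0103), whereas Pira2 gave -0.39 (SE 0.11 and adjusted p = 0.0939). For Fcgr2b the groups were apart in transitional cells, at -0.61 (SE 0.12 and adjusted p = 0.0321), and overlapped in follicular cells, at -0.26 (SE 0.11 and adjusted p = 0.417), and after CD40L, at -0.09 (SE 0.12 and adjusted p = 0.867). Leaving out 1 library ended the Fcgr2b call in 5 of 6 cases, all but transitional WT replicate 1 (adjusted p 0.0527 to 0.137), and the Pirb call in 3 of 6, without transitional WT replicate 2 or transitional Sh3gl1-/- replicate 1 or 3 (0.0601 to 0.0805). In a fit of all 18 libraries Pirb did not pass in transitional cells (adjusted p = 0.121).

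The abundant receptors gave smaller genotype differences. Cd22 and Fcrl1 libraries did not overlap between genotypes in transitional cells, at -0.34 (SE 0.08 and adjusted p = 0.0543) and -0.33 (SE 0.08 and adjusted p = 0.0585) by edgeR, and DESeq2 called both lower (adjusted p = 0.00316 and 0.00412). In follicular cells the estimates were 0.06 for Cd22 and -0.02 for Fcrl1, with overlapping groups. Siglecg gave -0.22 (SE 0.12 and adjusted p = 0.303) in transitional and -0.21 (SE 0.08 and adjusted p = 0.339) in follicular cells. Cd72 gave -0.19 (SE 0.10 and adjusted p = 0.287) in transitional cells but 0.27 (SE 0.06 and adjusted p = 0.0836) in follicular cells and 0.32 (SE 0.12 and adjusted p = 0.664) after CD40L, and its groups did not overlap in the follicular states. DESeq2 called Cd72 higher in Sh3gl1-/- follicular cells (adjusted p = 0.0107). After CD40L the genotypes overlapped for Cd22, Fcrl1 and Siglecg, at 0.21, 0.15 and 0.02.

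None of Cd5, Lair1 and Lilrb4a passed in any state in edgeR. Cd5 was at 0.93 (SE 0.27 and adjusted p = 0.200) in follicular cells, where the Sh3gl1-/- libraries lay above the WT libraries, and at 0.05 (SE 0.22 and adjusted p = 0.918) in transitional cells and -0.17 (SE 0.31 and adjusted p = 0.911) after CD40L, where the groups overlapped. Lair1 gave 0.69 (SE 0.24 and adjusted p = 0.137) in transitional cells, with overlapping groups, and passed without transitional Sh3gl1-/- replicate 2 (adjusted p = 0.0349). In follicular cells Lair1 was at 0.23 (SE 0.30 and adjusted p = 0.880), again with overlap, and after CD40L at -0.62 (SE 0.45 and adjusted p = 0.774), with the Sh3gl1-/- libraries below the WT libraries. Lilrb4a gave 0.05 (SE 0.22 and adjusted p = 0.915) in transitional cells, 0.43 (SE 0.27 and adjusted p = 0.640) in follicular cells and -0.23 (SE 0.30 and adjusted p = 0.859) after CD40L.

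**Figure D3:**
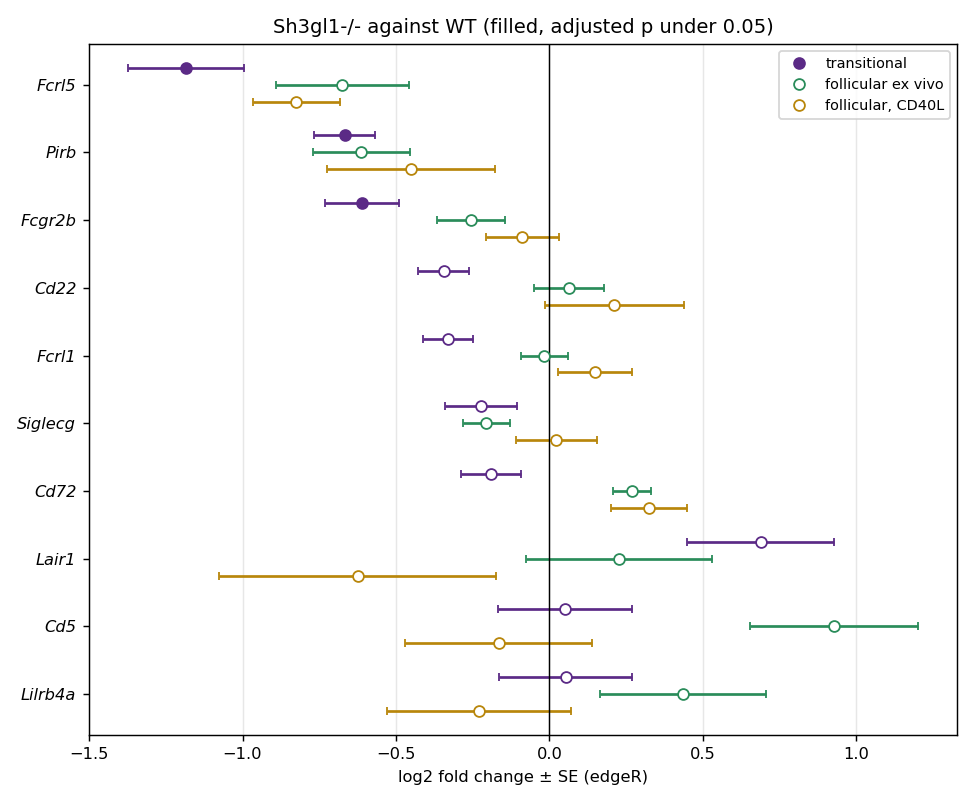
Log2 fold change of each receptor gene (± SE, edgeR) in Sh3gl1-/- against WT cells, with filled points for an adjusted p under 0.05. Transitional cells are in purple, follicular cells ex vivo in green and CD40L-cultured follicular cells in gold. Fcrl5 and Pirb lie to the left of 0 in all 3 states, and the filled points are those of Fcrl5, Pirb and Fcgr2b in transitional cells.

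Markers of other cells moved with some of these receptors. The 10 T cell markers, of which Trbc2 was the most abundant in every library, summed to 113, 151 and 152 CPM in WT and 286, 213 and 260.0 CPM in Sh3gl1-/- follicular cells, with 3 of 10 (Cd3d, Cd3e and Trbc2) called higher in Sh3gl1-/- cells. After CD40L culture the sum was 22.6, 24.3 and 22.8 CPM in WT and 41.9, 43.1 and 33.7 CPM in Sh3gl1-/- libraries, with 10 of 10 called lower in both genotypes. Of the markers, Cd4 was at 0 in 1 cultured WT library and none was at 0 elsewhere. In transitional cells it was 71.0, 93.1 and 118 CPM in WT and 193, 119.9 and 169 CPM in Sh3gl1-/- libraries, with 1 of 10 (Cd28) called higher in Sh3gl1-/- cells, at 1.34 (SE 0.25 and adjusted p = 0.0278). Cd5, which T cells express strongly, was high with this sum in Sh3gl1-/- follicular cells and low with it after culture. In Sh3gl1-/- cells the mean sum was 161 CPM in transitional and 253 CPM in follicular cells, with Cd5 at 8.76 and 11.4 CPM. Cd5 did not follow the sum in the comparisons given next. Between genotypes after CD40L the mean sum was 39.6 CPM in Sh3gl1-/- and 23.2 CPM in WT cells, with Cd5 at 2.97 and 3.39 CPM. From WT transitional to WT follicular cells the mean sum went from 94.0 to 139 CPM and Cd5 from 8.48 to 6.00 CPM, and in Sh3gl1-/- against WT transitional cells the mean sum was 161 CPM against 94.0 CPM with Cd5 at 8.76 and 8.48 CPM. How far the sort for RNA removed T cells, or the monocytes and macrophages described next, is not given in the sources used here. The part of T cells in the Cd5 values was not tested.

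The 10 monocyte and macrophage markers, of which Itgam is also among the B-1 markers, moved with Lair1, Pirb and Lilrb4a between the ex vivo states. Their sum was 461, 558 and 482 CPM in WT and 721, 411 and 551 CPM in Sh3gl1-/- transitional cells, and 115, 118 and 148 CPM in WT and 267, 119 and 217 CPM in Sh3gl1-/- follicular cells, with Lyz2 the most abundant ex vivo. Of the 10 markers, 10 were called lower in WT and 8 in Sh3gl1-/- follicular against transitional cells, and their part in the decrease of these receptors was not tested. After CD40L the sum was 70.2, 99.9 and 95.5 CPM in WT and 84.2, 50.8 and 67.5 CPM in Sh3gl1-/- libraries, with Adgre1 the most abundant. C1qa and Fcgr1 were at 0 counts in all 3 WT cultured libraries, in which Lilrb4a measured 157, 151 and 219 CPM. In the Sh3gl1-/- cultured libraries each of the pair was at 0 in 2 of 3. Of the 8 markers tested on CD40L, 2 (Adgre1 and Ms4a7) were called higher and 4 lower in WT cells and 2 and 5 in Sh3gl1-/- cells. The lower ones, among them Lyz2 at -4.08 (SE 0.48 and adjusted p = 1.04e-05) in WT and -3.52 (SE 0.45 and adjusted p = 3.36e-05) in Sh3gl1-/- cells and Csf1r at -4.34 (SE 0.83 and adjusted p = 0.000649) and -2.78 (SE 0.72 and adjusted p = 0.00639), fell along with Lair1 and Pirb, in whose decrease their part was not tested. Adgre1 moved with Lilrb4a, at 3.01 (SE 0.32 and adjusted p = 3.94e-06) in WT and 2.16 (SE 0.31 and adjusted p = 9.45e-05) in Sh3gl1-/- cells by edgeR, and Ms4a7 gave 1.38 (SE 0.46 and adjusted p = 0.0221) and 1.38 (SE 0.45 and adjusted p = 0.0240). Their part in the increase of Lilrb4a was not tested. Between the ex vivo states other mean sums were also lower in follicular than in transitional cells. For the 6 B-1 markers they were 49.9 beside 140 CPM in WT and 53.6 beside 130 CPM in Sh3gl1-/- cells. For the 5 plasma cell markers they were 150 beside 628 CPM in WT and 189 beside 2862 CPM in Sh3gl1-/- cells. Jchain and Tnfrsf17 were called lower in both genotypes, and Sdc1, Prdm1 and Irf4 in neither. The part of these cells in the receptor decreases was not tested.

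Marginal zone B cells are a subset known to express Fcrl5. The summed level of their markers was lower in Sh3gl1-/- than in WT libraries of each state, and the sums were not tested. The 5 markers, led by Cd1d1, summed to 408, 392 and 393 CPM in WT and 265, 281 and 245 CPM in Sh3gl1-/- transitional cells, 259.6, 243 and 295 and 196, 201 and 215 CPM in follicular cells, and 115, 115 and 116 and 79.4, 76.8 and 103 CPM after CD40L, and none was at 0. Cd1d1 was called lower in Sh3gl1-/- transitional cells, at -0.69 (SE 0.10 and adjusted p = 0.0130), the 1 of these 5 called there. Of 5 transitional markers, 1 (Cd24a) was called lower in Sh3gl1-/- transitional cells, at -0.87 (SE 0.15 and adjusted p = 0.0256), beside -0.53 for Vpreb3 (adjusted p = 0.0997), 0.22 for Cd93 (0.440), -0.82 for Rag1 (0.587) and 0.88 for Sox4 (0.137). The mean sum of the 5 was 959 CPM in WT and 644 CPM in Sh3gl1-/- cells. Of 4 follicular markers 1 (Ighd, the heavy chain of IgD) was called higher in Sh3gl1-/- transitional cells, at 0.56 (SE 0.11 and adjusted p = 0.030), and in Sh3gl1-/- follicular cells, at 0.34 (SE 0.07 and adjusted p = 0.0482). The 5 markers of activated B cells summed to 214, 216 and 232 CPM in WT and 174, 168 and 168 CPM in Sh3gl1-/- transitional cells, with no overlap and with 2 of 5 (Cd86 and Il2ra) called lower. The 6 B-1 markers, another subset known for Fcrl5 and Cd5, summed to 160.3, 135 and 124 CPM in WT and 148, 139 and 104 CPM in Sh3gl1-/- transitional cells, which overlapped. In the same Sh3gl1-/- transitional libraries the plasma cell gene Jchain stood at 2783 ± 1724 CPM beside 546 ± 126 CPM in WT libraries, and was the 1 of 5 plasma cell markers called. The others gave 2.02 for Tnfrsf17 (adjusted p = 0.162), 0.40 for Prdm1 (0.736), 0.03 for Sdc1 (0.979) and -0.10 for Irf4 (0.657). The 6 erythroid markers, 6 of 6 called higher, summed to 8851, 4447 and 9522 CPM beside 3021, 3976 and 2283 CPM. The 8 neutrophil markers, mostly led by Ngp, summed to 99.7, 55.0 and 65.7 CPM in WT and 586, 117 and 178 CPM in Sh3gl1-/- transitional cells, with 1 of 8 (Camp) called higher. Their sums were 182, 77.0 and 65.5 and 826, 185 and 299 CPM in follicular cells and 41.2, 23.5 and 9.97 and 197, 52.9 and 57.1 CPM after CD40L, with 0 called, and replicate 1 was highest in every Sh3gl1-/- group. The 6 B cell markers had a mean sum of 16959 CPM in WT and 13632 CPM in Sh3gl1-/- transitional cells, 12123 and 10875 CPM in follicular cells, and 9243 and 8410.1 CPM after CD40L, with 0 of 6 called between genotypes. How far the sort for RNA removed marginal zone, erythroid and neutrophil cells is not given in the sources used here. The part of any of these cells in the genotype differences of Fcrl5, Pirb and Fcgr2b was not tested.

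**Figure D4:**
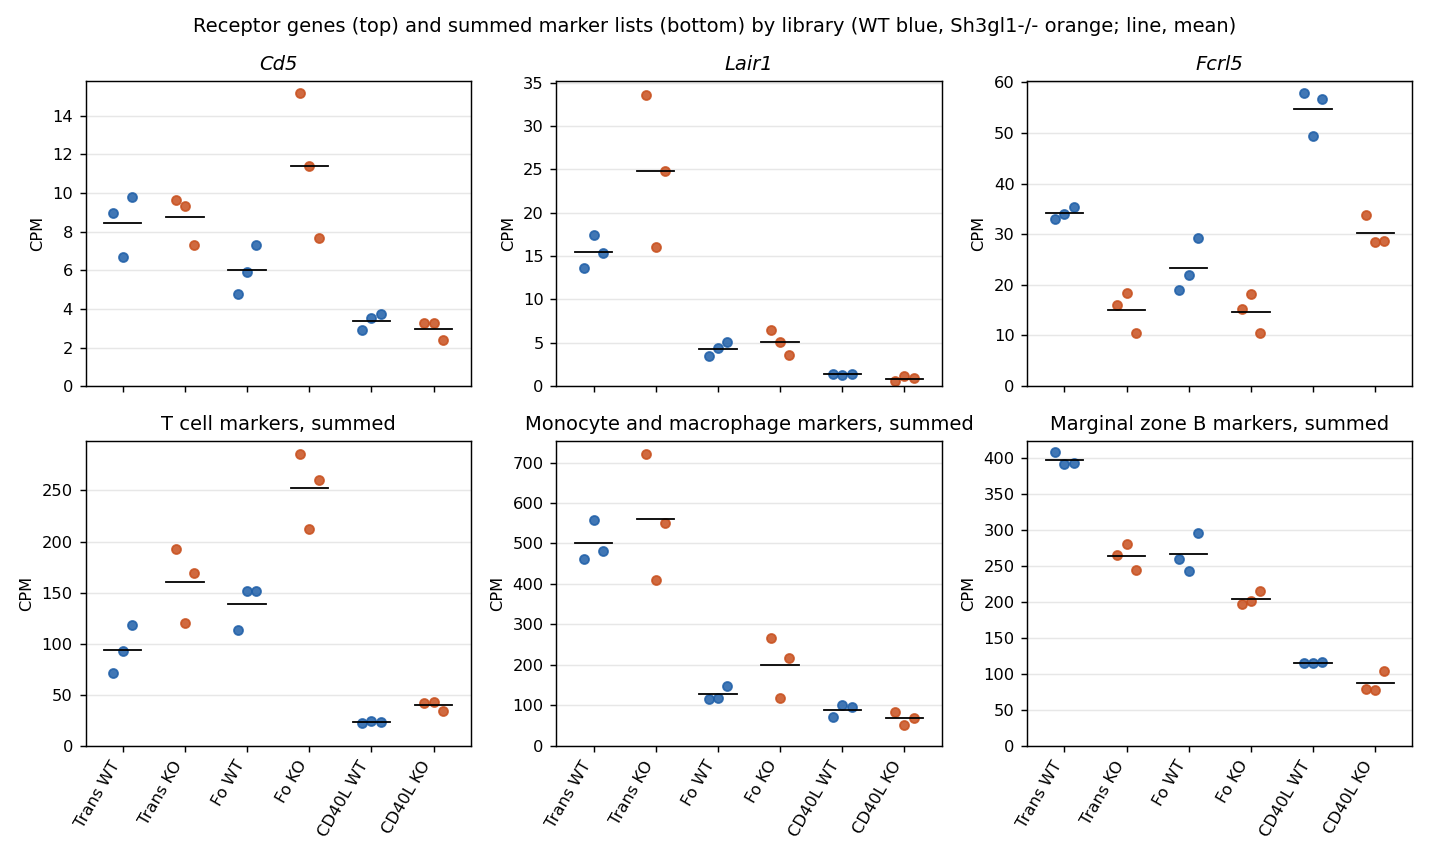
CPM of Cd5, Lair1 and Fcrl5 (top) and summed CPM of the marker lists of T cells, monocytes and macrophages, and marginal zone B cells (bottom) in each library, by group, with a line at the group mean. The T cell sum and the mean of Cd5 are highest in Sh3gl1-/- follicular libraries, the macrophage sum and Lair1 are highest in transitional libraries, and Fcrl5 and the marginal zone sum are both lower in Sh3gl1-/- than in WT libraries of each state.

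Of 18 genes for kinases, phosphatases and adaptors that act with ITIMs, 2 were called higher and 11 lower on CD40L culture in WT cells (median log2 fold change -0.63 beside -0.08 over all genes tested), and 3 and 10 in Sh3gl1-/- cells. Of all genes 23.6% were called higher and 25.7% lower in WT cells, and 20.6% and 21.8% in Sh3gl1-/- cells. Lyn, the kinase that phosphorylates ITIMs, fell by 1.24 in WT and 1.01 in Sh3gl1-/- cells on the log2 scale, and the inhibitory adaptor Dok3 was 5.67-fold and 3.27-fold lower. The phosphatase gene Ptpn6, encoding SHP-1, rose by 0.47 and 0.30, and the adaptor gene Dok1 by 1.03 and 1.03. Inpp5d, encoding SHIP, passed in Sh3gl1-/- cells at 0.32 (SE 0.11 and adjusted p = 0.0296) and gave 0.17 (SE 0.11 and adjusted p = 0.210) in WT cells by edgeR. Between genotypes 2 of 18, Cblb and Ptprc, were lower in Sh3gl1-/- transitional cells, at -0.52 (SE 0.11 and adjusted p = 0.0336) and -0.37 (SE 0.08 and adjusted p = 0.0336), beside 2.48% of all genes. In follicular cells 0 of 18 passed, with 7 at an unadjusted p under 0.05 (1481 of 13610 genes) and 1 called by DESeq2.

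Genes that make or carry the ligands of these receptors also changed on CD40L. Of 18, 2 were called higher and 11 lower in WT cells and 2 and 8 in Sh3gl1-/- cells, beside 49.3% and 42.4% of all genes called in either direction. Cmah, which makes the N-glycolyl sialic acid preferred by mouse Cd22, fell from 471 to 42.0 CPM in WT cells and from 441 to 53.0 CPM in Sh3gl1-/- cells, with log2 values of -3.52 (SE 0.12 and adjusted p = 2.80e-10) and -3.07 (SE 0.12 and adjusted p = 7.24e-10) by edgeR. Nans, the sialic acid synthase, rose by 1.06 and 0.69 on the log2 scale. St6gal1, which adds the sialic acid linkage bound by Cd22, was higher in Sh3gl1-/- transitional cells at 0.40 (SE 0.09 and adjusted p = 0.0396), where 1 of 18 was called, beside 3.73% of all genes. Sema4d, the ligand of Cd72, was lower in WT follicular than transitional cells, at -0.69 (SE 0.13 and adjusted p = 0.00162).

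Of 9 other Fc receptors tested, 1 was higher and 6 were lower after CD40L in WT cells and 2 and 6 in Sh3gl1-/- cells, again beside 49.3% and 42.4% of all genes. Fcgrt, the neonatal Fc receptor, fell by 5.82 and 6.29 on the log2 scale in WT and Sh3gl1-/- cells, and Pigr, which transports polymeric IgA, by 2.59 and 2.46. Fcer2a, the low-affinity IgE receptor CD23, rose by 1.47 and 1.35. Among the lower ones were Fcgr3, Fcgr4 and Fcer1g, at -3.65, -2.18 and -2.82 in WT and -3.27, -4.33 and -2.92 in Sh3gl1-/- cells. They fell along with the macrophage markers Lyz2 and Csf1r, at -4.08 and -4.34 in WT cells. Of the same marker list, Itgam and C1qa also fell in WT cells. Adgre1 and Ms4a7 rose, at 3.01 and 1.38, and Cd14 and Cd68 were not called. The part of macrophages in the decrease of these Fc receptors was not tested. Among other inhibitory receptors 3 of 18 tested were higher and 11 lower in WT cells, and 1 and 13 in Sh3gl1-/- cells, against the same shares. Ceacam1 fell by 2.33 in WT and 2.41 in Sh3gl1-/- cells, and Cd244a rose by 1.25 and 0.81. Between genotypes 1 of 17 was called in follicular cells (0.845% of all genes), the C-type lectin Clec12a, which was lower at -1.15 (SE 0.21 and adjusted p = 0.0334). At an unadjusted p under 0.05 there were 9 (1481 of 13610 genes), of which 8 had higher values in Sh3gl1-/- cells, and DESeq2 called 5, of which 4 were higher. Among the 8 were Cd200 at 0.47 (SE 0.11 and adjusted p = 0.106) and Btla at 0.33 (SE 0.08 and adjusted p = 0.108) by edgeR. In transitional cells 2 of 18 were higher and 1 lower in Sh3gl1-/- mice (3.73% of all genes either way), with Pecam1, an ITIM receptor, at -0.51 (SE 0.09 and adjusted p = 0.0269) and Btla at 0.41 (SE 0.07 and adjusted p = 0.0246). Tigit, a receptor known from T and NK cells, was the other of the 2 genes called higher there, at 2.45 CPM in Sh3gl1-/- and 0.295 CPM in WT cells (adjusted p = 0.0362, edgeR), in the libraries where the T cell marker Cd28 was also called higher.

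Of 7 co-receptors and signaling chains that favor B cell receptor signaling, 0 rose and 5 fell on CD40L in WT cells, and 0 and 5 in Sh3gl1-/- cells, where 25.7% and 21.8% of all genes fell. Cd38 fell by 3.22 and 3.08 on the log2 scale, and Cd79b, a signaling chain of the B cell receptor, by 1.04 and 1.12. Between genotypes none of the 7 passed in transitional cells in edgeR, with 6 at an unadjusted p under 0.05 (2996 of 13774 genes), all lower in Sh3gl1-/- cells, and 4 called by DESeq2. For Cd79b the value was -0.35 (SE 0.10 and adjusted p = 0.0868). After CD40L 0 genes of these 5 lists passed between genotypes in edgeR, with at most 2 of any list at an unadjusted p under 0.05 and at most 1 called by DESeq2.

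The same lists were read between follicular and transitional cells, where 11.7% of all genes were called higher and 14.2% lower in WT mice and 3.7% and 6.71% in Sh3gl1-/- mice. Of the ITIM effectors, 3 were higher and 5 lower in WT follicular cells and 0 and 3 in Sh3gl1-/- follicular cells. Ptpn6 was lower at -0.53 (SE 0.08 and adjusted p = 0.000370) and Lyn at -0.40 (SE 0.09 and adjusted p = 0.00551) in WT cells, whereas the adaptors Pag1 and Grb2 were higher at 0.49 (SE 0.12 and adjusted p = 0.00765) and 0.36 (SE 0.10 and adjusted p = 0.0144). In Sh3gl1-/- cells the 3 lower genes were Dok3, Shc1 and Cblb. Of the other Fc receptors, 4 were higher and 5 lower of 10 tested in WT cells, among the higher ones Fcer2a, which encodes the gate marker CD23, among the lower ones Fcgr3 and its signaling chain Fcer1g at -2.15 (SE 0.25 and adjusted p = 5.06e-05), and 3 (Fcer2a included) and 5 in Sh3gl1-/- cells. Of the other inhibitory receptors, 2 were higher and 7 lower of 19 tested in WT cells and 1 and 5 in Sh3gl1-/- cells. Pilra and Cd300a, both known from myeloid cells, were lower in WT follicular cells at -2.59 (SE 0.29 and adjusted p = 3.97e-05) and -2.30 (SE 0.27 and adjusted p = 5.61e-05), and the ligand gene Pdcd1lg2 was higher at 1.75 (SE 0.26 and adjusted p = 0.000349). Of the co-receptors, 1 was higher (Cr2, which encodes CD21/35) and 4 were lower in WT cells, and 1 and 2 in Sh3gl1-/- cells. Of the ligand genes 2 were lower in each genotype, Ighm, a gene of the gate markers, being 1 of them in both. The lower calls of Fcgr3, Fcer1g, Pilra and Cd300a came with the lower macrophage sum given above, whose part was not tested.

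Likeness of pattern was described by Pearson's r of log2 CPM over the 18 libraries, which share 3 cell states, so that r mostly follows the states. Among the 10 receptors the closest pairs were Siglecg with Pirb (r = 0.94) and Lair1 with Siglecg (r = 0.93). Fcgr2b and Fcrl5 were nearest to each other (r = 0.82). Among the 15117 genes that passed the filter over all libraries, the nearest to Pirb was Syk (r = 0.98), which encodes the kinase that starts B cell receptor signaling. The nearest to Lilrb4a was Vdac1 (r = 0.98), the nearest to Cd22 was Nrros (r = 0.97) and the nearest to Lair1 was Pparg (r = 0.98). The nearest to Siglecg was Gm45745 (r = 0.99). For Fcrl1 it was Fam169b (r = 0.96), for Fcrl5 Suclg1 (r = 0.92), for Fcgr2b Slamf6 (r = 0.91) and for Cd5 Nfe2l2 (r = 0.93). Cd72 had the loosest match, Cd99l2 (r = 0.79).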

How the data were processed

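RNA of 18 libraries was analyzed, in 6 groups of 3 taken from the sample titles. The authors deposited 1 table of RSEM expected counts, TPM and FPKM per gene, and its 54 value columns were each matched to a library by name. The deposited expected counts are not normalized, the deposited TPM values are the authors' length-corrected shares of the library, and FPKM, also deposited by the authors, scale fragments by length and depth. The submitters' processing notes name cutadapt 1.9.1, STAR 2.5.2a, RSEM 1.3.0 and GRCm38, whereas the methods name other tools, and the use of strand in counting is not given in the sources used here. RSEM divides reads shared by similar genes, and all 18 libraries had fractional counts for Fcgr2b, Cd72, Pirb and Lilrb4a.

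Counts were rounded and tested in R 4.3.3 with edgeR 4.0.16 (TMM, filterByExpr by group, glmQLFit and glmQLFTest), with Benjamini-Hochberg adjustment over all genes tested and a threshold of 0.05. Genotype contrasts were fitted within a state, and the others on the 12 libraries of the states compared. CPM uses TMM-scaled totals, with a prior count of 2 on the log2 scale. DESeq2 1.42.0, other size factors, filters, fits, replicate blocks and omission of each library were the alternatives, and the summed Lilrb4a locus was added after the data were seen. The scripts were tested on simulated data. The receptors, gene lists and markers were chosen with earlier results of these data known. All 10 receptors were named, with up to 2 genes of each list of lowest adjusted p per direction and comparison, the nearest gene by r and paralogs. Cd274, the single marker genes, and Fcgr3, Fcgr4 and Fcer1g on CD40L were named after their values were seen.

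Whether equal replicate numbers pair libraries is not stated. The deviations of same-numbered libraries from their group means correlated above 0.1 in every pair for transitional with follicular cells (r = 0.10, 0.14 and 0.24 in WT, 0.20, 0.26 and 0.11 in Sh3gl1-/-) and for follicular with CD40L cells in WT (0.14, 0.14 and 0.22), and these contrasts were also fitted paired. The smallest chi-square per degree of freedom between 2 replicates was 9.25, so that no replicate was a copy of another of its group. Counts limit precision for Lair1, with 8 to 573 reads per library, and Cd5, with 38 to 202.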

Additional observations from a re-analysis of the deposited data

How the results depend on the processing

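Directions and calls of the CD40L response held under all settings for Lilrb4a, Fcrl5, Siglecg, Pirb, Cd22 and Lair1. The number of the 10 receptors called was 3 in Sh3gl1-/- against WT transitional cells but 5 in DESeq2, 6 with all genes of at least 1 count and 1 with the replicate block by number. In follicular cells it was 0, but 2 in DESeq2, 4 with all genes of at least 1 count and 1 with the replicate block by number, and after CD40L it was 0, but 1 in DESeq2 and 1 with all genes of at least 1 count. For the genotype difference in maturation it was 0, but 1 in DESeq2 and 2 with all genes of at least 1 count. For maturation itself DESeq2 called 6 receptors lower in WT follicular cells, and 4 lower and 1 higher in Sh3gl1-/- follicular cells. Without 1 library at a time the counts ran from 7 to 9 and 9 to 10 for CD40L in WT and Sh3gl1-/- cells, 5 to 6 and 3 to 6 for maturation, 0 to 1 for the difference in maturation, and 0 to 3 for genotype in transitional cells, with 0 to 0 elsewhere. Over all genes, calls between genotypes were 514 in transitional, 115 in follicular and 3 in cultured cells, and 1361, 355 and 79 in DESeq2. For the interactions they were 0 (CD40L) and 10 (maturation), and 37 and 365 in DESeq2. No count over all genes is given for the lower filter, the replicate block by number or maturation in DESeq2. The receptor counts under those settings are therefore not set against a background. The replicate block within a genotype changed 3 calls, given with the results, and no other. Between genotypes, equal numbers only share a number.

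Estimates near 0 changed sign. The difference in CD40L response of Cd72 turned to -0.000761 in DESeq2 and -0.000765 with median-ratio size factors, and Sh3gl1-/- against WT after CD40L of Siglecg to -0.00668 with all 18 libraries in 1 fit. Without 1 library at a time the log2 values ranged over 0 as follows. For the difference in CD40L response they ran from -0.0736 to 0.30 for Cd22, -0.0503 to 0.13 for Cd72, -0.24 to 0.34 for Pirb and -0.35 to 0.0174 for Fcrl5. For maturation in Sh3gl1-/- cells they ran from -0.0011 to 0.21 for Cd22 and -0.24 to 0.15 for Fcrl5, and for its difference between genotypes from -0.0872 to 0.15 for Siglecg and -0.0561 to 0.21 for Pirb. Between genotypes they ran from -0.0931 to 0.16 for Cd5 and -0.15 to 0.22 for Lilrb4a in transitional cells, -0.0792 to 0.13 for Cd22 and -0.0742 to 0.0288 for Fcrl1 in follicular cells, and -0.0116 to 0.38 for Cd22, -0.0400 to 0.12 for Siglecg and -0.66 to 0.0477 for Lilrb4a after CD40L. The cause of these changes was not tested.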

Other observations

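The myeloid IgG receptors Fcgr3 and Fcgr4, paralogs of Fcgr2b, were measured in the same libraries. Fcgr3 was at 34.1 ± 11.6 CPM (SD, n = 3) in WT transitional cells, 5.56 ± 0.470 CPM in WT follicular cells and 0.452 ± 0.384 CPM after CD40L. In Sh3gl1-/- cells it was at 40.5 ± 5.29, 7.71 ± 2.91 and 0.805 ± 0.834 CPM. Fcgr4 was at 3.31 ± 1.29 CPM in WT transitional cells, 1.08 ± 0.527 CPM in WT follicular cells and 0.228 ± 0.287 CPM after CD40L. Its Sh3gl1-/- levels were 5.86 ± 1.20, 1.54 ± 0.0376 and 0.0653 ± 0.0628 CPM.

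The genes for the ligands of the programmed death receptor fell on CD40L in both genotypes. Cd274 was at 36.1 CPM ex vivo and 15.9 CPM after CD40L in WT cells, with -1.21 (SE 0.19 and adjusted p = 0.000152) in WT and -1.25 (SE 0.20 and adjusted p = 0.000170) in Sh3gl1-/- cells by edgeR. Pdcd1lg2 was at 27.4 and 12.6 CPM in WT cells, with -1.14 (SE 0.16 and adjusted p = 5.06e-05) in WT and -1.69 (SE 0.16 and adjusted p = 2.42e-06) in Sh3gl1-/- cells.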
